A study of Rattus norvegicus with 16 samples.

Results

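miR-210 is the microRNA most often named as a marker of low oxygen, and it was 1 of 677 rat miRNAs measured on the arrays. It was taken by its name in the array files, rno-miR-210. Its level was read in the hearts of 16 rat pups, 1 array per animal: 4 females and 4 males of the HHR strain, and 4 females and 4 males of the NHR strain. HHR is the hypertrophic heart rat, an inbred strain labelled as having a hypertrophic heart, and NHR is the normal heart rat, its control strain. All animals were 2 days old and none is described as treated or exposed to hypoxia. The labels differ on the tissue, since one field names the whole heart and the design text has the ventricles separated from the atria. Whether pups shared a litter is not stated, and p-values here measure the spread between these animals.

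When oxygen falls, hypoxia-inducible factor (HIF) escapes degradation, enters the nucleus and switches on genes for glycolysis, blood vessel growth and red cell formation. MIR210 is a direct HIF target. The mature miR-210 lowers, among others, the receptor ligand ephrin-A3 and the iron-sulphur cluster scaffold ISCU, and the lowering of ISCU restrains mitochondrial respiration. In the rodent heart miR-210 has been studied mainly after infarction, where its delivery is reported to protect cardiomyocytes. The neonatal heart is a setting of its own, because oxygen tension climbs at birth and cardiac muscle turns from glycolysis towards fatty acid oxidation.

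The sequences below are those of rat miR-210 in RefSeq (GRCr8), shown because the 2 arms and a transcript of the opposite strand had separate probes on the array. The hairpin lies on the minus strand at chr1:205755923-205756032, with both arms in capitals.
Mir210 hairpin: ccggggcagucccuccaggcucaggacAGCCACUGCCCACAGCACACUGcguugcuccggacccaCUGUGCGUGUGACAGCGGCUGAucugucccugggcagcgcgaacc
The mature miRNAs follow, written 5′ to 3′ with the seed (bases 2 to 8), the stretch that pairs with target mRNAs, in capitals.
rno-miR-210-3p: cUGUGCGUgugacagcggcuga
rno-miR-210-5p: aGCCACUGcccacagcacacug
rno-miR-3574: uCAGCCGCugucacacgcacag
rno-miR-147: gUGUGCGGaaaugcuucugcua
By the usual naming, the array's miR-210 is the 3p arm (chr1:205755946-205755967) and its miR-210* the 5p arm (chr1:205755984-205756005). The probe sequences were not used here. miR-3574 is annotated on the plus strand at the same bases as the 3p arm, and its reverse complement equals miR-210-3p at 22 of 22 positions. No other of the 693 mature names in the RefSeq table had the seed of miR-210-3p, and miR-147 alone shared bases 2 to 7 with it. In the annotation Mir210 overlaps the long noncoding RNA LOC102553043, with Rassf7 on one side and Phrf1 and Irf7 on the other.

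Of these related RNAs, miR-210 itself was the one with signal. It was detected on 16 of 16 arrays, while miR-210*, miR-3574 and miR-147 were each detected on 0 of 16. All 320 spots for miR-210 were well above background and none was saturated, whereas 0 of the 320 spots for miR-210* were well above background. The signal in these hearts was thus read from one arm and one strand of the locus.

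Each array carried 2 probes for miR-210 with 10 spots each, and 10 of the 320 spots were left out as outliers. The brighter probe, A_26_P00001472, gave unscaled signals of 265 to 524 over the 16 arrays, and the dimmer, A_26_P00001473, gave 127 to 264, against local backgrounds of 30 to 39.5. The ratio of brighter to dimmer stayed between 1.93 and 2.10 on every array. The coefficient of variation among the spots of a probe on one array had a median of 5.70% for the brighter and 5.46% for the dimmer probe.

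miR-210 was lower in HHR hearts. Levels are intensities scaled so that the 75th percentile of reliably measured probes was equal on all arrays, averaged over the 2 probes. The HHR females had levels of 225, 220.0, 221 and 235 (mean 225 ± 7.10, SD, n = 4), against 302, 274, 273 and 291 in NHR females (285 ± 14.2, n = 4). The HHR males had 220.1, 194.6, 212 and 209 (209 ± 10.6, n = 4), against 286, 254, 279.5 and 371 in NHR males (298 ± 50.4, n = 4). The highest HHR heart, at 235, stayed below the lowest NHR heart, at 254, so the strains did not overlap in either sex. Over both sexes the 8 HHR hearts averaged 217 ± 12.1 (SD) and the 8 NHR hearts 291 ± 34.96. In whole tissue, fewer cells of a type and less of the miRNA per cell cannot be told apart.

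**Figure D1:**
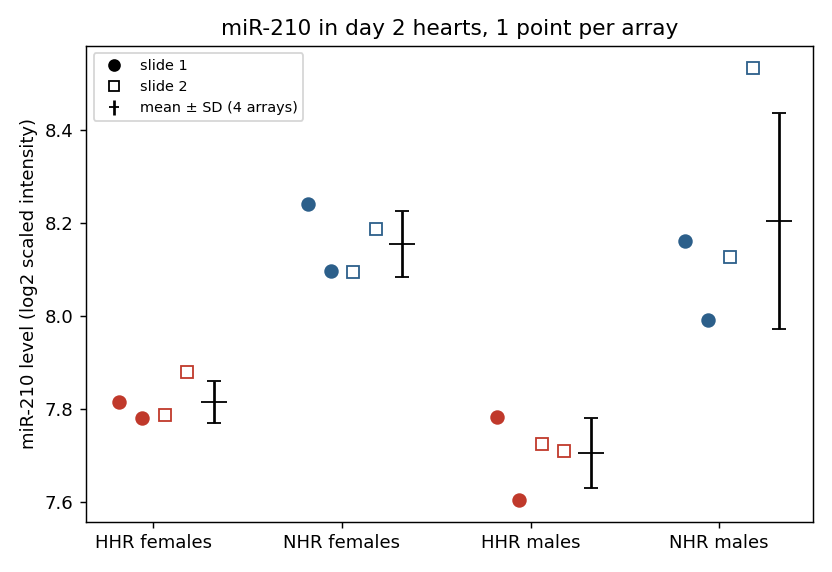
Level of miR-210 (log2 of scaled intensity) in each of the 16 hearts, by strain and sex, with slide 1 and slide 2 marked by different symbols. Every HHR heart lies between 7.60 and 7.88 and every NHR heart between 7.99 and 8.53, with NHR male 4 the highest.

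The strain difference was -0.42 ± 0.062 on the log2 scale (SE; 95% confidence interval -0.55 to -0.28; 8 hearts per strain), which is 1.34-fold lower in HHR, with a limma adjusted p of 0.000128. In an exact two-sided permutation test the p was 0.0001554, the smallest that splits of 8 against 8 can give, for miR-210 and for each probe alone (adjusted 0.000466 over 9 tests). The brighter probe differed by -0.42 and the dimmer by -0.42, so both reported a decrease of the same size. The probes share the RNA, the array and its scaling, so they are not replicates of the result. The arrays came on 2 slides, each with 2 arrays of every group. The difference was -0.38 on slide 1 and -0.46 on slide 2. The exact permutation p on each slide was 0.0286, the smallest possible with 4 against 4 (adjusted 0.0367). That p was fixed once the strains did not overlap, so it adds no support of its own.

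A difference between these strains was common among cardiac miRNAs. Under the same scaling 54.5% of the 233 tested miRNAs passed the threshold of 0.05 on the adjusted p, 45.5% lower and 9.01% higher in HHR. miR-210 ranked 21 by p, and 27 miRNAs called lower in HHR had a larger decrease. Strains without overlap were rarer: 11.2% of tested miRNAs had every HHR array below every NHR array, as miR-210 did. The median strain difference of all tested miRNAs was -0.11, and relative to it miR-210 was at -0.31, or 1.24-fold lower in HHR.

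Under the reported scaling the decrease was found in both sexes. Some other scalings lost the call in each sex, and in females the sign turned with no scaling (0.089). In females the HHR minus NHR difference was -0.34 ± 0.088 (SE; 95% interval -0.53 to -0.15; limma adjusted p = 0.00948), where 45.1% of tested miRNAs were called and 38.6% were called lower. In males it was -0.50 ± 0.088 (-0.69 to -0.31; limma adjusted p = 0.00104), where 20.6% were called and 16.7% were called lower. The exact permutation p was 0.0286 in each sex, the smallest possible with 4 hearts against 4 (adjusted 0.0367). It too was fixed by the lack of overlap between the strains and is no further support. A larger decrease in males was not shown: the interaction, male minus female strain difference, was -0.16 ± 0.12 (-0.43 to 0.11; limma adjusted p = 0.929).

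Males and females did not differ detectably. The male minus female difference over both strains was -0.030 ± 0.062 (SE; 95% interval -0.16 to 0.10; limma adjusted p = 0.970), so a sex difference beyond about 0.16 either way lies outside the interval. By limma 0% of the 233 miRNAs were called between the sexes and 0% for the interaction, although 23 and 9 had an unadjusted p under 0.05. Within HHR, males minus females gave -0.11 (exact permutation p = 0.0571, adjusted 0.0643, n = 4 each). Within NHR it gave 0.049 (exact permutation p = 0.8, n = 4 each), and NHR male 4 was the highest of all hearts.

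The spread between hearts of one group was ordinary. The residual SD of miR-210 within groups was 0.13 on the log2 scale, against a median of 0.12 over the tested miRNAs, and 54.1% of them had a smaller one. The NHR hearts were more spread than the HHR hearts, with SDs on the log2 scale of 0.082 for HHR and 0.16 for NHR (8 hearts each). Most of that came from NHR male 4, at 8.53. Without it the SD of the NHR hearts was 0.079 (n = 7), and the strain difference was -0.36 (limma adjusted p = 6.10e-06).

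The size of the decrease depended on how the arrays were brought to one scale, and HHR arrays were brighter as a whole. The 75th percentile of the reliably measured probes before scaling was 418 to 525 on HHR arrays (mean 470 ± 37.3, SD, n = 8) and 295 to 503 on NHR arrays (378 ± 87.3, n = 8), a log2 difference of 0.34 (exact two-sided permutation p = 0.0169). The unscaled miR-210 signal averaged 245 ± 28.9 over the HHR arrays and 265 ± 69.7 over the NHR arrays (SD, n = 8 each), with overlapping ranges of 196 to 284 in HHR and 198 to 394 in NHR. As a share of its own array's 75th percentile, however, miR-210 stood at 46.7% to 56.5% in HHR and 61.1% to 89.0% in NHR.

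Arrays of like brightness, judged by the same 75th percentile, can be compared before scaling. The 8 HHR arrays and 3 of the NHR arrays had a 75th percentile above 400. On them the unscaled miR-210 signal reached at most 284 in HHR, against 330, 304 and 394 in NHR female 3, NHR male 2 and NHR male 4. The 5 dimmer NHR arrays had unscaled signals of 198 to 233. Among the bright arrays alone the scaled strain difference was -0.42 (limma adjusted p = 0.0163; 21.9% of tested miRNAs were called lower), and with brightness as a covariate on all 16 it was -0.42 (limma adjusted p = 0.00185; 25.3% called lower). These 2 values equal the -0.42 over all arrays to 2 decimals. Both start from levels scaled to the 75th percentile, so they cannot test that choice of scaling. The 3 bright NHR arrays also include NHR male 4, the highest of all hearts.

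**Figure D2:**
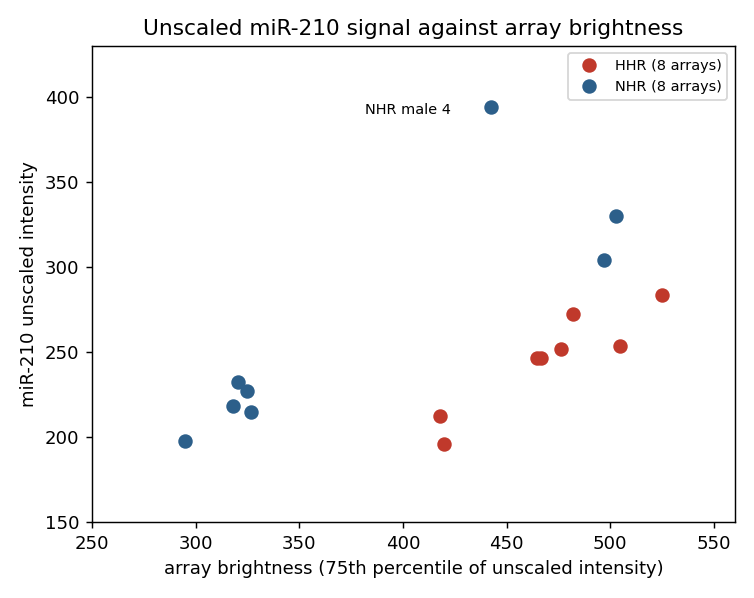
Unscaled miR-210 signal against the brightness of each array (75th percentile of reliably measured probes before scaling), 8 HHR and 8 NHR arrays. At like brightness the NHR arrays lie above the HHR arrays, and 5 NHR arrays are dimmer than all HHR arrays.

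The direction over both sexes was the same under each of 6 scalings, while the size and the call were not. The difference was -0.36 (limma adjusted p = 0.000260) with quantile normalization, where 16.3% of tested miRNAs were called lower, and -0.24 (adjusted p = 0.00866) with median centring, where 11.6% were. It was -0.14 (adjusted p = 0.156) with the percentile taken over all probes, -0.17 (adjusted p = 0.451) with scaling to spike-in controls and -0.079 (adjusted p = 0.646) with no scaling. These scalings also moved all other miRNAs: the median strain difference of tested miRNAs ran between -0.11 and 0.23. Relative to that median, miR-210 differed by -0.38 to -0.31 under the 6 scalings, against -0.42 to -0.079 for the differences themselves. Apart from quantile normalization, the scalings differ only by a single factor per array, which drops out against the median. Their relative differences, -0.31 in each, are therefore alike by construction, and only quantile normalization (-0.38) could differ. Among the settings outside these 6, the relative difference was smaller with a normexp background (-0.15), in the authors' deposited table (-0.14) and on slide 1 alone (-0.25). With the total gene signal it was -0.34, and on slide 2 alone -0.38. In females alone the sign turned with no scaling, to 0.089 (limma adjusted p = 0.709).

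**Figure D3:**
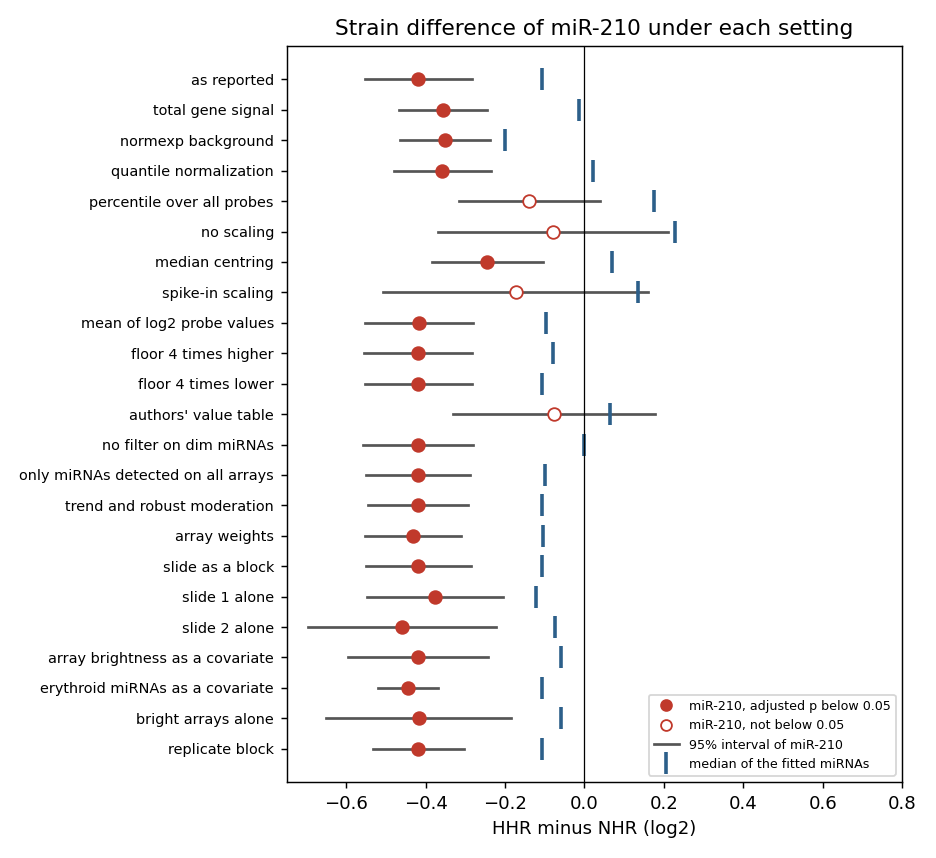
HHR minus NHR difference of miR-210 (log2) with its 95% confidence interval under each scaling and fit, and the median difference of all fitted miRNAs under the same setting as a tick. The point lies left of its tick in each setting, from -0.46 on slide 2 alone to -0.077 in the authors' deposited table.

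Other miRNAs reported to rise under hypoxia were set beside miR-210, from a list of 20 names drawn up with earlier results of these data known. Of these, 19 were on the array under the listed name and all 19 were tested (miR-155 was not among the names). By limma 14 were called lower in HHR, 0 higher and 5 not called, beside 45.5% lower among all tested miRNAs. At an unadjusted p under 0.05 the number called higher was also 0, since all 19 differences were below 0. The list's median difference was -0.12, against -0.11 over all tested miRNAs.

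Most of those calls went with the scaling. miR-192, which p53 induces in human cells, had the largest difference on the list, at -0.82 ± 0.067 (SE, 8 hearts per strain; limma adjusted p = 3.45e-07). miR-195, of the miR-15 family, which restrains cardiomyocyte division in the neonatal mouse heart, differed by -0.34 ± 0.042 (limma adjusted p = 2.30e-05). miR-192 was called lower under all 6 scalings. It was dim, however, with mean log2 levels of 2.70 in HHR and 3.51 in NHR, against a floor of 0.913. It was detected on 14 arrays, whereas every other tested member of the list was detected on all arrays. miR-195 was below 0 under all 6 but lost the call with the percentile over all probes (-0.062, limma adjusted p = 0.192), spike-in scaling (-0.097, 0.570) and no scaling (-0.0031, 0.984). The differences of miR-23b, miR-181c, miR-23a and miR-103 ran from -0.14 to -0.12 and passed the test under the reported scaling, but were below 0 under 2 of the 6. With the percentile over all probes, 17 members were called higher and 1 lower, beside 57.5% higher and 9.01% lower among all tested miRNAs. With no scaling and with spike-in scaling 1 member was called lower, beside 4.29% of all tested miRNAs under each.

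miRNAs reported to target Hif1a mRNA, which encodes the oxygen-regulated HIF subunit, formed a list of 7 names. Of the 6 on the array, 4 were tested, and miR-138 and miR-429 were detected on no array. By limma 1 was called higher in HHR, beside 9.01% higher among all tested miRNAs, and 0 lower, with a list median of 0.028. It was miR-199a-5p, reported to fall in hypoxic rat cardiomyocytes, with a difference of 0.20 ± 0.072 (SE, 8 hearts per strain; limma adjusted p = 0.0335) that was above 0 under all 6 scalings and missed the threshold with spike-in scaling (limma adjusted p = 0.0505). The other 3, miR-17-5p, miR-20a and miR-20b-5p of the miR-17 family, had differences of 0.020 to 0.029 and did not pass. Their calls depended on the scaling: all 3 were called higher with the percentile over all probes (0.30 to 0.31) and with median centring (0.19 to 0.20), and miR-20a (0.10) and miR-20b-5p (0.087) with quantile normalization. Among all tested miRNAs the share called higher was 24.5% with quantile normalization, 57.5% with the all-probe percentile, 16.3% with no scaling and 25.3% after median centring.

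**Figure D4:**
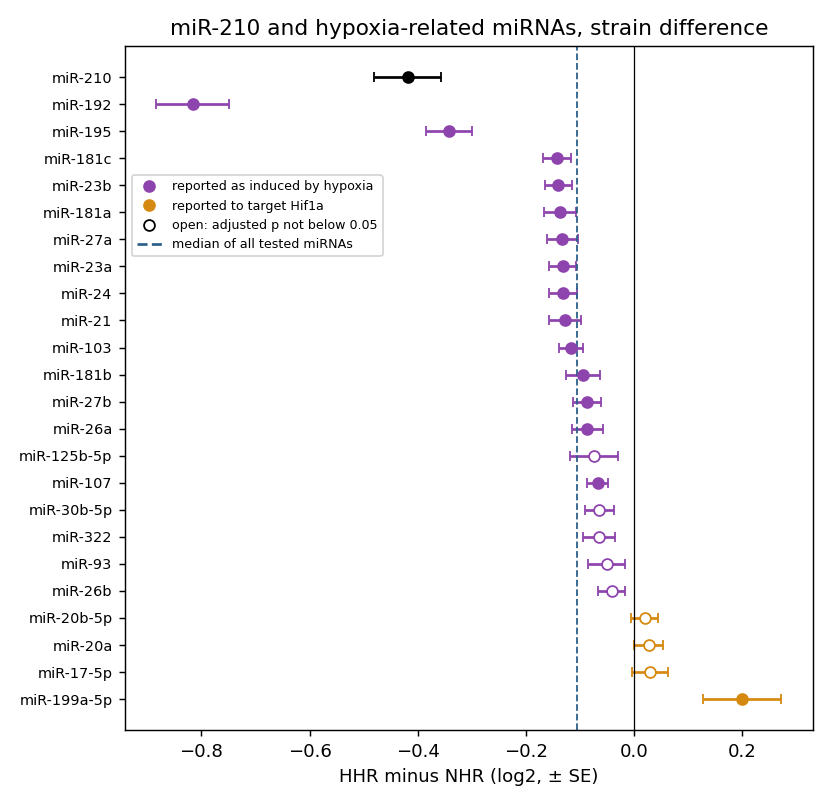
HHR minus NHR difference (log2, with standard error) of miR-210, of the 19 tested miRNAs reported to rise under hypoxia and of the 4 tested miRNAs reported to target Hif1a; the dashed line is the median of all tested miRNAs, -0.11. Apart from miR-192, miR-195 and miR-210, the induced miRNAs lie close to that line, and miR-199a-5p lies to its right.

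The heart's own miRNAs were present, and so were those of red cells. The muscle miRNAs miR-1, miR-133a, miR-133b and miR-499 were detected on all 16 arrays, while the 5 epithelial markers and the liver marker miR-122 were detected on none. Of the 7 listed cardiac muscle miRNAs 5 were tested, since no array detected miR-208 or miR-208b-5p. Called lower in HHR were 3 of the 5, miR-133b, miR-208b-3p and miR-499, beside 45.5% of all tested miRNAs. They were below 0 under 2, 1 and 4 of the 6 scalings, and the list's summed level was 11497 to 12943 in HHR and 12253 to 13885 in NHR. Red cell miRNAs did not pass the test between strains: miR-451 was at 0.037 ± 0.11 (limma adjusted p = 0.796) and miR-144 at 0.069 ± 0.11 (adjusted p = 0.598). With the percentile over all probes both were called higher in HHR, miR-451 at 0.32 (limma adjusted p = 0.0278) and miR-144 at 0.35 (adjusted p = 0.0195). Their summed level was 198.9 to 307 in HHR hearts and 209 to 332 in NHR hearts, and miR-486 was not on the array under that name.

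Among markers of other cell types, 2 of 2 tested endothelial, 2 of 3 leukocyte and 2 of 4 fibroblast and smooth muscle miRNAs were called lower in HHR, beside 45.5% of all tested miRNAs. The endothelial miR-126 and miR-126* were both called lower, with a summed level of 964 to 1077 in HHR and 1157 to 1272 in NHR, although each was below 0 under 3 of the 6 scalings. Of the leukocyte miRNAs, miR-150 (-0.53) and miR-223 (-0.47) were called lower, miR-142-3p (-0.11) did not pass, and miR-142-5p was detected on no array. miR-150 and miR-223 were below 0 under all 6 scalings, but both lost the call with no scaling (-0.19 and -0.13) and spike-in scaling (-0.29 and -0.22), and miR-223 also with the percentile over all probes (-0.19). The summed leukocyte level was 89.2 to 102.8 in HHR and 106 to 144 in NHR. The fibroblast and smooth muscle miRNAs called lower were miR-143 and miR-145, which were below 0 under 2 and 1 of the 6 scalings. The other 2, miR-199a-3p (0.12) and miR-214 (0.16), did not pass, were above 0 under all 6, and were called higher with quantile normalization, the percentile over all probes, median centring and no scaling, miR-214 also with spike-in scaling (6.87% of all tested miRNAs called higher). The list had summed levels of 2332 to 2699 in HHR and 2404 to 2672 in NHR. The part of these cells in the miR-210 difference was not tested.

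Between hearts of one group, miR-210 moved most with the red cell miRNAs. The measure was Pearson's r over the 16 arrays of deviations from the 4 group means, given as a description. The highest were miR-144 (r = 0.886), miR-451 (0.834), miR-142-3p (0.675), miR-29c (0.597) and miR-29b (0.571). miR-144 ranked first under each of the 6 scalings, with the total gene signal and in the authors' deposited table (r = 0.768 to 0.954), and miR-451 ranked between 2 and 11. The highest of these r came from settings where most miRNAs moved with miR-210: the median r over all tested miRNAs was 0.815 with no scaling, 0.867 with spike-in scaling and 0.811 in the authors' deposited table, against -0.024 under the reported scaling. miR-144 and miR-451 come from one primary transcript that is abundant in erythroid cells, and they are printed here because they share no seed with miR-210.
rno-miR-144-3p: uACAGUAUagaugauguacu
rno-miR-451-5p: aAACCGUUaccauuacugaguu
Both lie on the plus strand of chr10 in GRCr8, at chr10:63459446-63459465 and chr10:63459585-63459606.

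The extremes mostly followed this pattern, except at the top of HHR. HHR male 2 had the lowest of all 3 among the HHR hearts, with miR-210 at 7.60 on the log2 scale, miR-451 at 7.41 and miR-144 at 4.87. NHR male 2 likewise had the lowest of the NHR hearts, with miR-210 at 7.99, miR-451 at 7.51 and miR-144 at 4.74. NHR male 4 had the highest of the NHR hearts, with miR-210 at 8.53, miR-451 at 8.16 and miR-144 at 5.51. Among the HHR hearts, HHR female 4 had the highest miR-210 (7.88) and miR-144 (5.42). The highest miR-451 was in HHR male 1 (8.05), where miR-210 was at 7.78. HHR female 1 had miR-210 at 7.81 with miR-451 at 7.70.

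Within HHR, miR-451 and miR-210 correlated at r = 0.694 (exact permutation p = 0.0639, adjusted 0.128 over 10 relations, n = 8) and rho = 0.381 (exact permutation p = 0.360, adjusted 0.556). Without HHR male 1 and HHR male 2, the hearts farthest from the median of miR-451, r was 0.195, so in HHR it rested on those hearts. Within NHR, r was 0.892 (exact permutation p = 0.000471, adjusted 0.00471, n = 8) and rho 0.905 (exact permutation p = 0.00456, adjusted 0.0362), and r was 0.811 without NHR male 2 and NHR male 4. For miR-144, r was 0.730 within HHR (exact permutation p = 0.0461, adjusted 0.115, n = 8) with rho 0.452 (exact permutation p = 0.267, adjusted 0.535), and 0.821 within NHR (exact permutation p = 0.00779, adjusted 0.0389, n = 8) with rho 0.738 (exact permutation p = 0.0458, adjusted 0.115). Without the 2 hearts farthest from the median of miR-144, r was -0.18 in HHR and 0.632 in NHR. These relations were chosen after the deviations had been seen. Adjusting over 10 relations does not cover that choice among the 233 tested miRNAs, so the p-values are too small and serve as description.

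A fit with a red cell term gave the strain difference beside these miRNAs. At a given level of the red cell miRNAs, entered as the mean of miR-451 and miR-144, HHR minus NHR was -0.44 ± 0.035 (SE, 8 hearts per strain; limma adjusted p = 5.00e-07; 45.1% of tested miRNAs called lower), against -0.42 ± 0.062 without this term. The standard error was smaller with the term, and the covariate was chosen after its relation to miR-210 was seen. Leukocyte miRNAs were not entered.

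**Figure D5:**
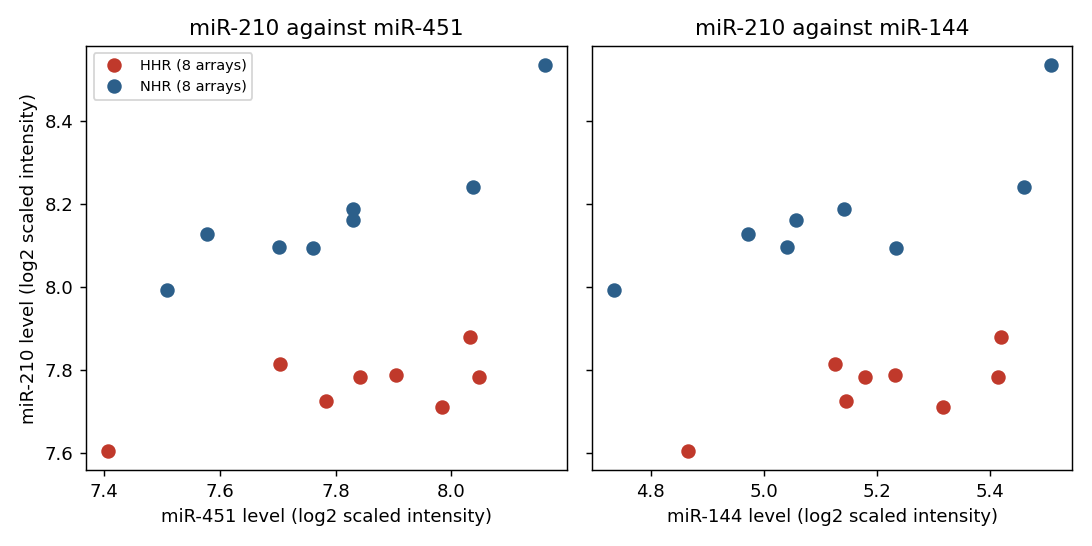
miR-210 against the red cell miRNAs (log2 levels) in the 16 hearts, HHR and NHR marked separately. NHR hearts lie above HHR hearts at like levels of the red cell miRNAs, and NHR male 4 is at the top right.

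By level over all 16 arrays, which includes the strain difference, the nearest miRNAs were miR-29c (r = 0.889), miR-532-5p (0.874), miR-500 (0.839), let-7d (0.833) and miR-362* (0.831). Each of the 5 was called lower in HHR, beside 45.5% of all tested miRNAs, which choosing them by likeness to miR-210 over both strains favours. The differences were -0.71 for miR-500, -0.59 for miR-532-5p, -0.57 for miR-362*, -0.15 for miR-29c and -0.13 for let-7d. miR-29c was the single miRNA among the nearest 5 by both measures. For miR-500 and miR-362* the deviations within groups had the opposite sign, at r = -0.33 and -0.27, so their likeness to miR-210 lay between the strains.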

How the data were processed

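Total RNA (100 ng per animal, per the labels' protocols) was labelled with Cy3 and hybridised to Agilent rat miRNA arrays. The authors deposited each array's scanner output, in which Agilent Feature Extraction 10.7.3.1 gave each spot's background-subtracted intensity (rn4 design, per the file headers); the detection flags are other values, 0 or 1, that the authors deposited with it. They also deposited a table of log2 values, whose columns correlated at 0.998 to 0.999 with the log2 median signal (column medians 6.13 to 6.15); the sources used here do not state how it was background-corrected, scaled or centred, and it served as an alternative. The submitters' processing notes name limma.

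Outlier and control spots were left out of the processed intensities and spots were averaged. Arrays were scaled to an equal 75th percentile of the 258 probes that every array had well above background. Probes of a miRNA were averaged, values floored at 1.88 and log2 taken. Precision is limited by the number of arrays. The 233 miRNAs detected on at least 4 arrays were fitted in limma 3.58.1 (R 4.3.3) with 1 mean per group and 5 contrasts, and p-values were adjusted over the 233 by Benjamini-Hochberg (threshold 0.05). Single values used exact two-sided permutation tests. The fit was tested on simulated data. miR-210 was always named. From each list, called members (up to 6 by p) or else the 2 with the smallest p were named, as were the 5 nearest miRNAs by each measure and 4 muscle miRNAs. Other members of lists were named with their values seen. The miRNA and the lists were chosen with earlier results of these data known. Alternatives covered scaling, background, floor, filters, moderation, slide, replicate number, brightness and leaving out each array.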

Additional observations from a re-analysis of the deposited data

Results flagged for a closer look

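NHR male 4 stood apart among the 8 NHR arrays. Its gap to the next highest NHR heart was 0.543 of the whole NHR range of miR-210 levels, above Dixon's 95% critical value for 8 samples. The same fraction was 0.538 for the brighter probe and 0.551 for the dimmer one. The 3 values come from one array and are not independent. In all, 18 combinations of value and group were examined and these 3 passed, and chance passes about 5% of groups. Within the 4 NHR males the fraction was 0.686, under the critical value for 4 samples. Without this heart the strain difference was -0.36 (limma adjusted p = 6.10e-06) and the difference in males was -0.39.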

How the results depend on the processing

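Over both sexes miR-210 was below 0 in HHR under all 22 alternatives and passed limma's threshold under 18 (-0.46 to -0.24). These counts include the floor, filter, moderation, slide block and replicate block settings. Those could not move its estimate, which was -0.42 in each, but only its p. Of the 6 scalings, the reported one included, miR-210 passed under 3. It did not pass with the percentile over all probes (-0.14, adjusted p = 0.156), no scaling (-0.079), spike-in scaling (-0.17) or the authors' deposited table (-0.077, adjusted p = 0.624); without single arrays it was -0.45 to -0.36. The exact permutation p under the first 3 was 0.114, 0.587 and 0.313 for -0.14, -0.079 and -0.17, and without single arrays the difference was -0.45 to -0.37. In females it lost the call with the percentile over all probes (-0.020), median centring (-0.12), spike-in scaling (-0.043), slide 1 alone (-0.37), slide 2 alone (-0.31) and bright arrays alone (-0.28, with 1 NHR female, assumed to vary like the other groups), and turned with no scaling (0.089) and in the authors' deposited table (0.031); without single arrays it was -0.36 to -0.31. In males it lost the call with the percentile over all probes (-0.26), no scaling (-0.25), spike-in scaling (-0.30), the authors' deposited table (-0.19), slide 1 alone (-0.38) and slide 2 alone (-0.61); without single arrays it was -0.57 to -0.39. Single slides and the bright set hold fewer arrays; the cause of the other losses was not tested. The sex difference passed nowhere and turned with quantile normalization (0.017), the percentile over all probes (0.034), slide 2 alone (0.037), the red cell covariate (0.011), bright arrays alone (0.029) and without NHR male 2 (0.0050); without single arrays it was -0.085 to 0.0050. The interaction passed nowhere (-0.23 to -0.049 without single arrays). The 127 strain calls became 70 with the total gene signal, 48 with no scaling, 26 with spike-in scaling, 15 in the authors' deposited table, 37 on slide 1, 47 on slide 2, 74 with the brightness covariate and 61 on bright arrays (106 to 128 without single arrays). The share of calls that were lower in HHR was 83.5%, against 51.4% with the total gene signal, 98.8% with normexp, 40.0% with quantile normalization, 13.5% with the percentile over all probes, 20.8% with no scaling, 31.4% with median centring, 38.5% with spike-in scaling and 13.3% in the authors' deposited table. The 14 calls among hypoxia-induced miRNAs, all lower in HHR, became 18 with the percentile over all probes (17 higher), 2 with the total gene signal, 6 with quantile normalization, 1 with no scaling, 4 with median centring (2 higher), 1 with spike-in scaling, 0 in the authors' deposited table, 2 on slide 1 and 6 on slide 2 (14 to 15 without single arrays). Replicate numbers did not clearly pair the arrays. Same-numbered arrays of different groups had a mean residual correlation of 0.206 (-0.22 to 0.53), against -0.069 (-0.61 to 0.70) for differently numbered ones. Of the 16 arrays, 4 matched their own number best. With the replicate block miR-210 was at -0.42 ± 0.052 (SE), against ± 0.062 without it, and 124 miRNAs were called.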

Other observations

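Among the 5 tested blood miRNAs, the leukocyte miR-223, abundant in neutrophils and monocytes, ran against miR-210 within HHR. Over the 8 HHR hearts r was -0.81 (exact permutation p = 0.0172, adjusted 0.0575 over 10 relations) and rho was -0.88 (exact permutation p = 0.00724, adjusted 0.0362), and r was -0.88 without HHR female 1 and HHR female 4. Over the 8 NHR hearts r was -0.15 (exact permutation p = 0.782) and rho 0.214 (exact permutation p = 0.619). Whether the relation differs between the strains was not tested. The leukocyte miR-142-3p went the other way, with r = 0.631 in HHR (exact permutation p = 0.0957) and 0.598 in NHR (exact permutation p = 0.108, n = 8 each). Its rho was 0.357 in HHR (exact permutation p = 0.389) and 0.762 in NHR (exact permutation p = 0.0368, adjusted 0.115). Without the 2 hearts farthest from its median, r was 0.0764 in HHR and 0.464 in NHR. The lymphocyte miR-150 had r = -0.25 in HHR (exact permutation p = 0.554) and -0.32 in NHR (exact permutation p = 0.438, n = 8 each). Its sign was not stable: rho was -0.29 in HHR (exact permutation p = 0.501) and 0.262 in NHR (exact permutation p = 0.536). Without NHR male 2 and NHR male 4, r in NHR was 0.839, and without HHR female 1 and HHR male 3, r in HHR was 0.0553.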
